A study of Homo sapiens with 4 samples.

Results

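The aldo-keto reductase cluster of mouse chromosome 13 was followed through 4 xenograft tumours by the deposited expression values of 5 genes: Akr1c14, Akr1c18, Akr1c13, Akr1c12 and Akr1e1. The 5 were taken by gene symbol, each matched 1 locus, and together they make up 5 of the 23698 loci in each table. The tumours grew under the skin of Balb/c nude mice from MDA-MB-231 cells, an established line of human triple-negative breast cancer. The labels define 4 groups of 1 library each: caspase-3 efficient and untreated, caspase-3 efficient with docetaxel, caspase-3 inhibited and untreated, and caspase-3 inhibited with docetaxel. Inhibited tumours came from cells that had been kept in culture with Z-DEVD-FMK, a peptide inhibitor of caspase-3, and the inhibitor is recorded for the cultured cells only, so these groups describe the graft and not the host. Docetaxel, a taxane that stabilises microtubules, was given at 15 mg/kg when tumours measured 12 mm2. Nude mice have no functional thymus and therefore few T cells, but keep B cells, natural killer cells, macrophages and other host cells.

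Values are FPKM, fragment counts scaled by transcript length and library size, with the lower and upper bound that the authors' software wrote beside each value. They were computed on the mouse build mm9, so they describe the host, together with whatever human reads fitted mouse sequence. With 1 library in each group there is no replicate check and no p-value, and the bounds cover estimation within a library, not differences between animals. In bulk tissue, fewer cells of a type and less RNA per cell cannot be told apart.

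Aldo-keto reductases are soluble enzymes that use NADPH or NADH to reduce aldehydes and ketones to alcohols, among them steroids, prostaglandins and the reactive aldehydes of lipid peroxidation. The AKR1C enzymes of rodents and people arose by gene duplication, lie side by side, and act on hydroxyl and keto groups of steroid hormones with overlapping preferences. Because the copies resemble each other, reads can align to more than 1 of them, and the sources used here do not say how such reads were divided.

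The members were measured at low depth. Between 1842 and 2776 of the 23698 loci were above 0 in a library. The depths implied by the deposited bounds were 1.24 times that of the untreated efficient library for the docetaxel-treated efficient one, and 0.891 and 0.666 times for the inhibited libraries without and with docetaxel, as medians over 208 to 233 loci. If a bound lies 2 Poisson standard deviations from its value, Akr1c14 rested on about 57.0 fragments in the efficient tumour with docetaxel, 14.3 in the efficient tumour without it and 5.75 in the inhibited tumour with it. Akr1c13 rested on 3.37 to 15.3 fragments, Akr1c18 and Akr1e1, where above 0, on 1.48 to 7.96, and Akr1c12 on less than 1 in each of its 3 libraries with a value. These fragment numbers are rough, and a listed 0 is given below as listed and not read as a level.

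The order of the genes along chromosome 13 was Akr1c14 (4058837 to 4089668), Akr1c18 (4131873 to 4149877), Akr1c13 (4190433 to 4204849), Akr1c12 (4267418 to 4278645) and Akr1e1 (4591736 to 4608410), all in mm9 coordinates with each locus spanning its exons and introns. Within that span lay 10 loci, of which 9 were aldo-keto reductase genes. The 5 members were those above 0 in at least 1 library, while Akr1c19, Akr1c6, Akr1c20 and Akr1c21 were listed at 0 in all 4. A further 8 loci with aldo-keto reductase symbols, on other chromosomes, were also listed at 0 throughout, among them Akr1b3, the aldose reductase gene, and Akr1a1, an aldehyde reductase gene. That gives no level for them, because only 3925 of the 23698 loci were above 0 in at least 1 library. Detection also differed along chromosome 13. A value above 0 in 3 or more libraries was found for 13 of the 53 other chromosome 13 loci within 10 Mb of the cluster (24.5%) and for 33 of the 828 farther away (3.99%).

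**Figure D1:**
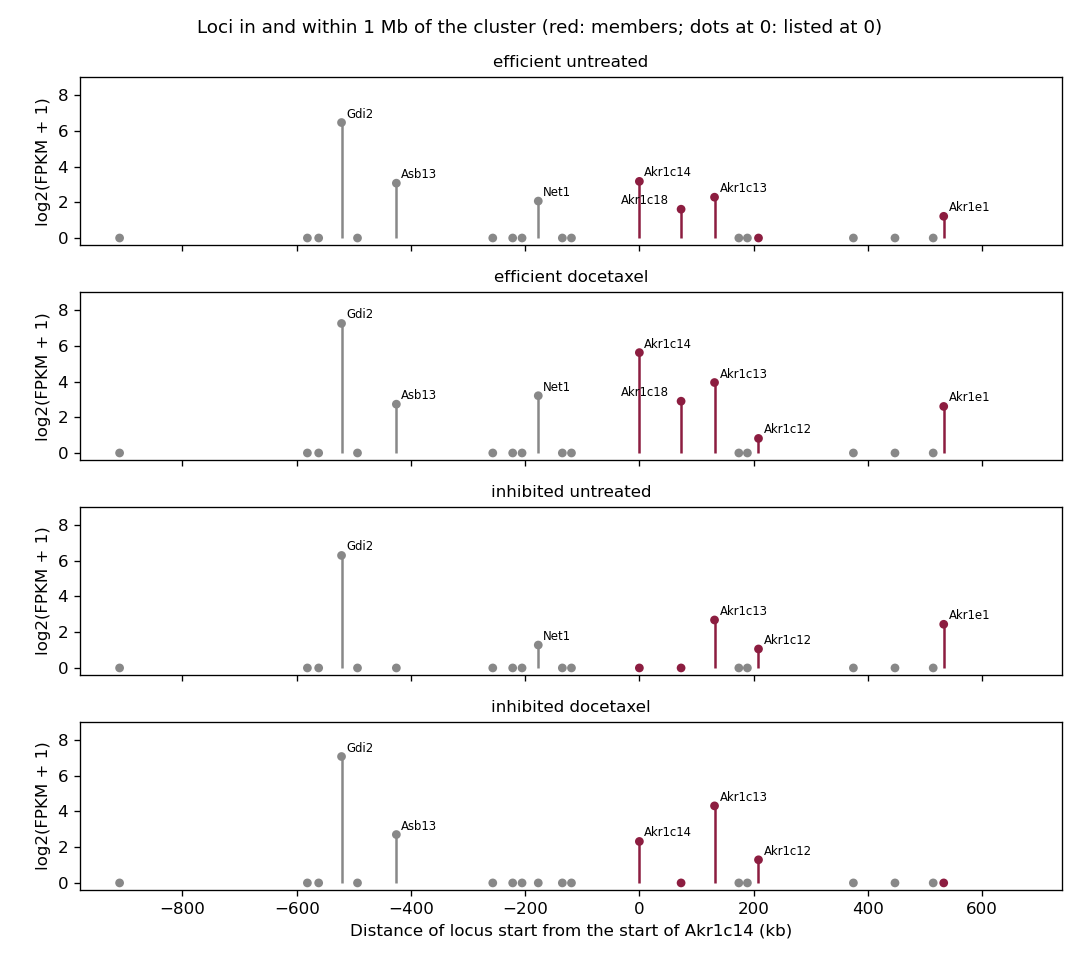
Level of each locus in and within 1 Mb of the cluster, as log2(FPKM + 1) on the vertical axis, against the distance of its start from the start of Akr1c14 in kb, with 1 panel for each library. Red marks the 5 members and grey the other loci, and dots at 0 are loci listed at 0. Gdi2 stood between 77.6 and 151 FPKM in the 4 libraries, while Akr1c14 ran from a listed 0 to 48.1 FPKM.

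Akr1c14 encodes a hydroxysteroid dehydrogenase that acts on ring-reduced androgens and progestins. It was at 7.99 FPKM (bounds 3.26 to 12.2) in the untreated efficient tumour, 48.1 (35.3 to 60.8) in the docetaxel efficient tumour, listed at 0 in the untreated inhibited tumour and at 4.0 (0 to 7.33) in the docetaxel inhibited tumour. The docetaxel efficient library stood apart from the other 3, with a lower bound above each of their upper bounds, while the untreated efficient and docetaxel inhibited libraries overlapped. By rank within its own library, a measure that needs no scaling between libraries, Akr1c14 was 90th of the 2776 loci above 0 in the docetaxel efficient tumour, 336th of 2255 in the untreated efficient tumour and 635th of 1842 in the docetaxel inhibited tumour.

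Akr1c18 encodes an enzyme that inactivates progesterone. It was at 2.05 FPKM (0 to 5.10) in the untreated efficient library and 6.45 (1.27 to 11.4) in the docetaxel efficient library, and it was listed at 0 in both inhibited libraries. The bounds of the 2 efficient libraries overlapped, and the inhibited libraries were the shallower ones, so their listed 0 does not show that the gene was absent.

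Akr1c13, one of the closely related Akr1c genes of the middle of the cluster, had another pattern. It was at 3.87 FPKM (0 to 8.08) in the untreated efficient library, 14.4 (6.04 to 21.7) with docetaxel, 5.43 (0 to 10.9) in the untreated inhibited library and 18.9 (4.85 to 31.5) with docetaxel. Both docetaxel libraries had the larger values, and all 4 sets of bounds overlapped their neighbours in that order. It was the only member above 0 in every library. Its rank was 254th of 2776 and 190th of 1842 in the docetaxel efficient and docetaxel inhibited libraries, and 620th of 2255 and 463rd of 2000 in the untreated efficient and untreated inhibited ones.

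Akr1c12, a near neighbour and close relative of Akr1c13, was listed at 0 in the untreated efficient library and stood at 0.758 FPKM (0 to 2.42) in the efficient library with docetaxel, and at 1.09 (0 to 3.63) and 1.45 FPKM (0 to 4.85) in the inhibited libraries without and with it. Each lower bound was 0, so no order of these libraries can be read for it. Akr1e1, at the far end of the cluster, encodes a reductase of anhydrofructose, a product of glycogen breakdown. It was at 1.32 FPKM (0 to 3.49), 5.08 (0.868 to 8.68), 4.44 (0 to 7.83) and a listed 0 in the efficient tumours without and with docetaxel and the inhibited tumours without and with it. Its 3 values above 0 overlapped.

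**Figure D2:**
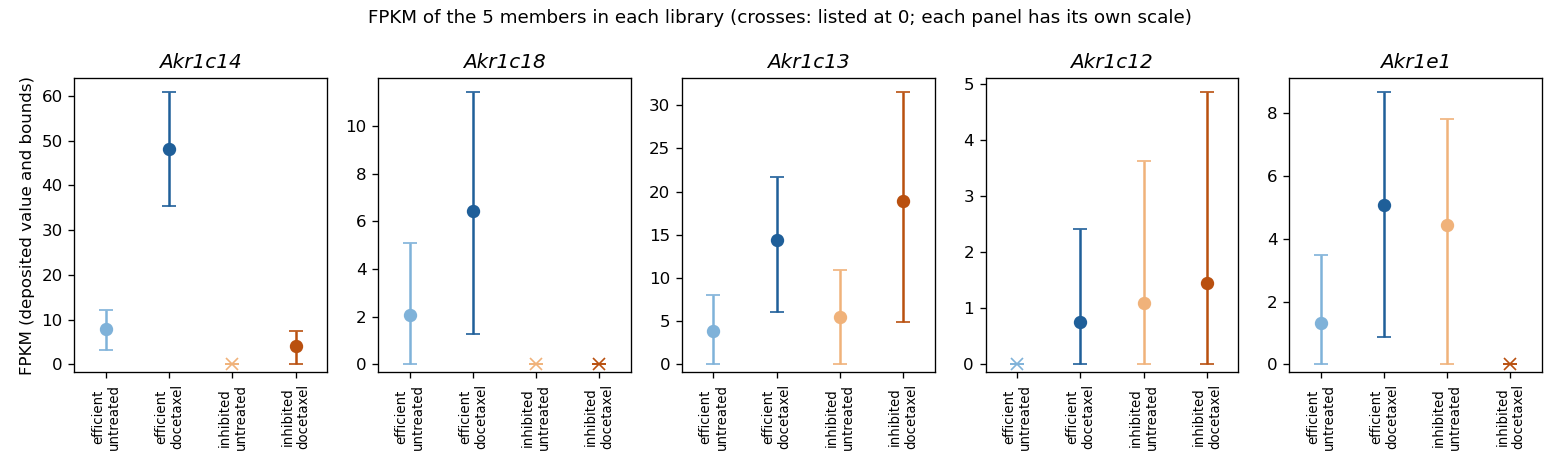
FPKM of each of the 5 members in the 4 libraries, 1 panel for each gene with its own vertical scale. Points are deposited values, bars run from the deposited lower to the upper bound, and crosses mark a listed 0. For Akr1c14 the docetaxel efficient bar (35.3 to 60.8) lies above the bars of the other libraries, whereas the bars of Akr1c13 overlap.

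Added over the 5 members, the cluster stood at 15.2 FPKM in the untreated efficient tumour, 74.8 in the docetaxel efficient tumour, 11 in the untreated inhibited tumour and 24.3 in the docetaxel inhibited tumour. The added bounds of the docetaxel efficient library (43.5 to 105) cleared those of the 2 untreated libraries (3.26 to 28.9 and 0 to 22.4) and just overlapped those of the docetaxel inhibited library (4.85 to 43.7). Adding bounds takes every member at its lower or upper bound at once. These ranges are therefore not bounds estimated for the sum, and the slight overlap settles nothing. How reads were divided among genes of different length, and with the 4 cluster genes listed at 0, enters this sum as well. By deposited values the make-up of the sum differed between the libraries. Akr1c14 gave 52.5% and 64.3% of it in the untreated and docetaxel efficient tumours, and 16.4% in the docetaxel inhibited tumour, where Akr1c13 gave 77.6%. The level of Akr1c14 per length was 2.07 and 3.34 times that of Akr1c13 in the 2 efficient libraries and 0.212 times that of Akr1c13 in the docetaxel inhibited library. Bounds of Akr1c14 and Akr1c13 were apart in the docetaxel efficient library only, so the order of the pair is read there alone.

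**Figure D3:**
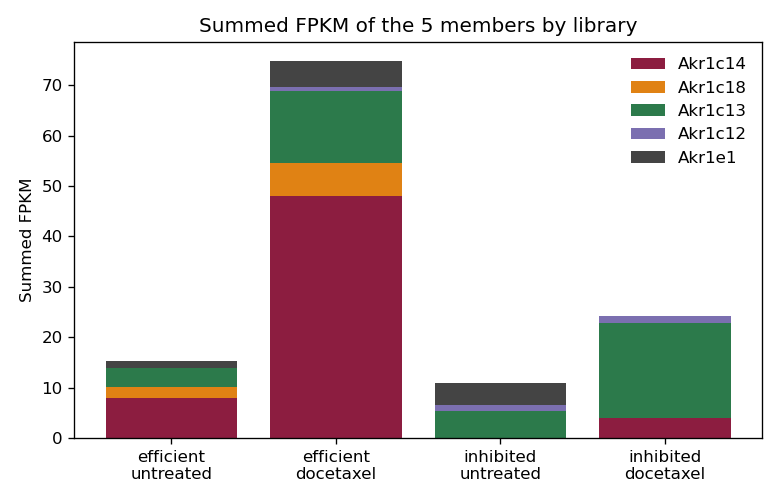
Summed FPKM of the 5 members in each library, with each colour a member. The sum was 74.8 FPKM in the docetaxel efficient library and 11 to 24.3 in the other 3, and Akr1c13 takes the place of Akr1c14 as the largest part in the inhibited libraries.

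The first comparison asked how the cluster differed between the docetaxel-treated and the untreated tumour when the graft was caspase-3 efficient. All 5 members had the larger value with docetaxel, as did 65.7% of the 667 loci compared. For Akr1c12 this is 0.758 FPKM against a listed 0, so no order is read for it. Akr1c14 was higher by the rule used here, at 6.02 times its untreated level. The rule asks for an at least 2-fold difference of log2(FPKM + 1), for bounds that do not overlap and for 5 FPKM or more in 1 of the 2 libraries. By that rule 1 of the 4 members that reached 5 FPKM was higher and 0 were lower, where 8.1% of the 667 loci compared were higher and 0.9% lower. The bounds allow a ratio for Akr1c14 from 2.89 to 18.7. On the log2(FPKM + 1) scale, which understates differences of low genes, Akr1c14 differed by 2.45, which was 39th from the top of the 667 loci. Akr1c13 (1.66), Akr1e1 (1.39) and Akr1c18 (1.29) did not meet the rule because their bounds overlapped. These 3 reached 5 FPKM only in the docetaxel library, where their value was the larger, so the filter favours members that differ upward, and no median over the members is given. The median over all 667 loci was 0.34, and 0.36 over the 19 other chromosome 13 loci compared.

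Gdi2, which encodes a regulator of Rab GTPases and lies on the near side of the cluster, had 151 FPKM (126 to 174) in the treated and 87.2 (69.1 to 105) in the untreated efficient tumour, a ratio of 1.73 that did not meet the rule. When each library was scaled to the 11 chromosome 13 loci within 10 Mb that were above 0 throughout, the log2 difference of Akr1c14 was 2.35 and it still met the rule. All loci together leaned upward with docetaxel, with 54 higher and 6 lower as deposited and 38 and 14 after scaling each library to the median of its well-measured loci.

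Markers of host cell types also differed between these libraries. Of the 14 adipocyte markers, 3 were above 0 in any library, and the summed level of the list was 12.6, 429, 11.6 and 12.4 FPKM in the efficient tumours without and with docetaxel and the inhibited tumours without and with it. Nearly all of the 429 was Retn, the resistin gene, at 417 FPKM. Cidea, a lipid droplet gene of the list, was not set apart in the docetaxel efficient library. It was at 2.07 (0 to 5.13), 9.76 (2.56 to 16.6), 11.6 (3.84 to 21.1) and 12.4 FPKM (2.57 to 20.5) in that order. These bounds overlapped, so no order of the libraries is read for Cidea, and it did not meet the rule in any comparison. The 11 markers without a value, among them Adipoq, Plin1 and Fabp4, were listed at 0 throughout. Erythroid markers summed to 208, 1767, 935 and 427 FPKM in the same order, with 3 of 7 genes above 0, all but Slc4a1 alpha globin. Of 12 macrophage and myeloid markers, 3 were above 0, with Mmp12 carrying sums of 88.1, 211, 55.6 and 95.4 FPKM. The summed levels of these 3 lists, each carried by 1 or 2 genes, were at their highest in the docetaxel efficient library, as Akr1c14 was, and their part in its level was not tested. The fibroblast list, with 3 of 11 genes above 0 and carried by Col1a2, was at 369, 515, 371 and 579 FPKM. Col1a1, of the same list, was at 0.334 FPKM in the docetaxel efficient library and listed at 0 in the other 3. Cldn4, the 1 carcinoma and epithelial marker of 7 above 0, was at 5.71 FPKM in the docetaxel efficient library and listed at 0 in the other 3. The endothelial list summed to 0.734 to 3.30 FPKM and the hepatocyte list never exceeded 3.26, and the keratinocyte and skeletal muscle lists were listed at 0. A listed 0 gives no level for a marker either, so the absence of a cell type is not read from these lists.

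In caspase-3 inhibited tumours the cluster gave fewer values to compare. Akr1c13 was the 1 member that reached 5 FPKM, at 18.9 FPKM with docetaxel and 5.43 without. The ratio was 3.47, beside 3.72 in the efficient tumours, and in both pairs its bounds overlapped. In all, 0 of 1 compared member was higher and 0 lower, where 3.81% of 630 loci were higher and 1.75% lower. On the log2(FPKM + 1) scale Akr1c13 differed by 1.63, 46th from the top of the 630, beside a median of 0.37 over all of them and 0.74 over 19 other chromosome 13 loci. Akr1c14 was at 4.0 FPKM with docetaxel and listed at 0 without, Akr1e1 was at 4.44 without and listed at 0 with it, and Akr1c18 was listed at 0 in both. Over all loci this comparison depended on scaling, with 24 higher and 11 lower as deposited and 12 and 19 after median scaling, while Akr1c13 kept a positive difference of 1.25.

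Inhibited and efficient tumours were then compared without docetaxel. Akr1c14 was at 7.99 FPKM in the efficient tumour and listed at 0 in the inhibited one, so it met the rule as lower against bounds of 0 to 0. No fold is given and no level is read from the listed 0. With a value above 0 required in both libraries 0 members were called, where 12 of 559 loci were lower and 11 higher. The rule as written made 1 of 2 compared members lower and 0 higher, where 3.35% of 597 loci were lower and 2.51% higher. Each of those members passed the 5 FPKM filter only through the library where its value was the larger. Akr1c13, the other member compared, was at 5.43 against 3.87 FPKM, a ratio of 1.40 with bounds that overlapped. Akr1c18 (2.05 FPKM in the efficient tumour, listed at 0 in the inhibited) and Akr1e1 (1.32 against 4.44) lay under 5 FPKM. The neighbour Asb13, a subunit of ubiquitin ligase complexes, was likewise listed at 0 in the untreated inhibited library and at 7.39 (1.85 to 12.9) in the efficient one, whereas Gdi2 was at 77.6 against 87.2 FPKM. Asb13 thus met the rule as lower, also against bounds of 0 to 0, and Gdi2 did not.

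Under docetaxel more members reached 5 FPKM in the comparison of inhibited with efficient tumours than without it. Akr1c14 was lower in the inhibited library, at 4.0 FPKM (0 to 7.33) against 48.1 (35.3 to 60.8). The efficient level was 12.0 times the inhibited one, and at least 4.81 times by the bounds. Akr1c18, at 6.45 FPKM in the efficient library, and Akr1e1, at 5.08, met the rule as lower against a listed 0. Akr1c14, Akr1c18 and Akr1e1 passed the 5 FPKM filter only through the efficient library, where their value was the larger. For these members the filter favoured a lower call. For Akr1c18 and Akr1e1 the listed 0 carries bounds of 0 to 0, so the bounds criterion added nothing there and no level was read. By the rule 3 of 4 compared members were lower and 0 higher, where 9.27% of 701 loci were lower and 3.99% higher. The count was 1, Akr1c14, when a value above 0 was required in both libraries, where 30 of 637 loci were lower and 26 higher. Akr1c13 was at 18.9 against 14.4 FPKM, a ratio of 1.31 that the bounds place between 0.223 and 5.22. The median log2 difference was -0.05 over all 701 loci and 0.13 over the 21 other chromosome 13 loci compared, of which 3 were lower and 0 higher. The first comparison uses the same docetaxel efficient library, so a large value in that library enters both.

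Among the neighbours on that side of the cluster, Net1 was at 8.22 FPKM (4.33 to 12.6) in the docetaxel efficient library and listed at 0 in the docetaxel inhibited one. Net1 thus met the rule as lower, against bounds of 0 to 0. Its other values were 3.19 (0 to 7.01) and 1.43 FPKM (0 to 4.98) in the untreated efficient and untreated inhibited libraries. Gdi2 was at 134 against 151 FPKM and Asb13 at 5.53 against 5.64 under docetaxel, and neither met the rule. Of the 12 loci in the flanks of 1 Mb, these 3 were above 0 in any library.

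**Figure D4:**
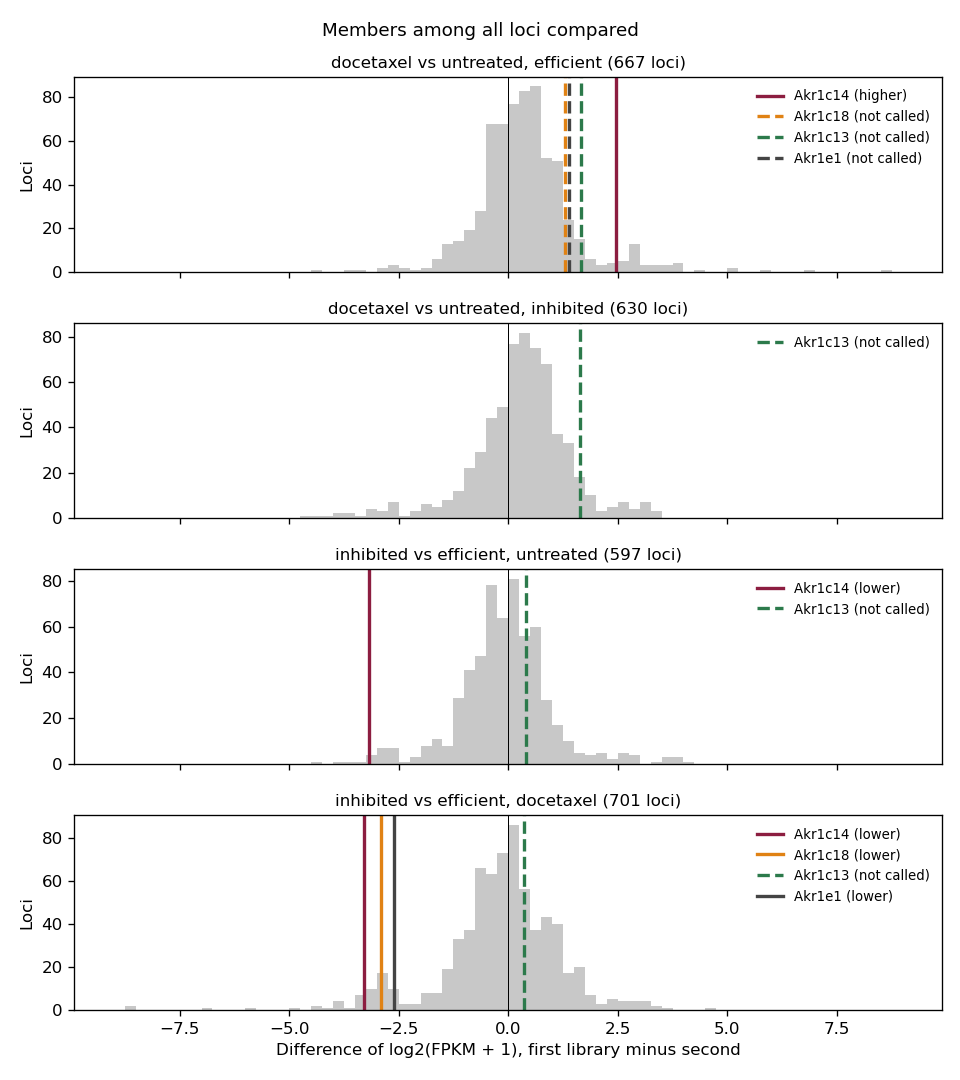
Differences of log2(FPKM + 1) between 2 libraries, first minus second, for the loci compared that fall in the drawn range (grey bars, number of loci). Loci beyond that range are not drawn. Members that reached 5 FPKM are vertical lines, solid where the rule was met. Akr1c14 lies at 2.45 and -3.30 in the panels where it was above 0 in both libraries. Its line at -3.17 is against a listed 0, where a pseudocount of 0.1 gives -6.34 and one of 5 gives -1.38, and the lower lines of Akr1c18 and Akr1e1 are set by the pseudocount in the same way, while Akr1c13 lies at 1.66, 1.63, 0.40 and 0.37.

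The docetaxel differences were also set against each other, inhibited minus efficient, on the log2(FPKM + 1) scale. For Akr1c13 the difference of differences was -0.03, from 1.63 and 1.66, and the bounds of the 4 libraries allow -5.53 to 5.39, so the data do not show that the responses were alike. For Akr1c14 it was -0.13, from 2.32 and 2.45, although its FPKM differed by 4.0 in the inhibited and 40.1 in the efficient pair. The inhibited difference of Akr1c14 starts from a listed 0, so its size is set by the pseudocount. Akr1c18 gave -1.29 and Akr1e1 -3.84, for which the bounds allow -6.42 to 1.26. Of the 4 members that reached 5 FPKM in some library, Akr1e1 alone lay past 2 on this scale, on the lower side, where 9.55% of 775 loci did and 7.1% lay past 2 on the higher side. With a pseudocount of 5 its value was -1.59, no longer past 2. Of the 129 loci past 2 in either direction 80 were listed at 0 in at least 1 library, as Akr1e1 was.

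Of the genes of 5 related pathway lists, 13 of the 90 in the table (14.4%) were above 0 in at least 1 library, beside 16.6% of all loci. Of 16 other aldo-keto reductase genes looked for, Kcnab3 alone was above 0, at 0.958 FPKM in 1 library. Of 27 steroid and retinoid oxidoreductases 4 were above 0, and Hsd17b1, an estradiol-forming enzyme gene, was at 4.47, 0.697, 7.02 and 2.68 FPKM in the efficient tumours without and with docetaxel and the inhibited tumours without and with it. Each of its lower bounds was 0, so no order of these libraries is read for it, and it did not meet the rule in any comparison. Of 14 prostaglandin genes 3 were above 0, none over 3.49 FPKM.

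Of 23 target genes of NRF2, the oxidative stress factor that controls many aldo-keto reductases, 2 were above 0. Gstp1, a glutathione transferase gene, was at 27.6, 52.6, 28.9 and 33.1 FPKM in the same order. Of 12 aldehyde detoxification genes 3 were above 0, with Aldh3b1, an aldehyde dehydrogenase gene, at 22.0, 31.0, 12.4 and 11.6 FPKM. Both had their largest value in the docetaxel efficient library, and neither met the rule. Over the 5 lists only 2 or 3 genes could be compared in each comparison and 0 met it, which at the shares given above for all loci says little.

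Loci whose profile over the 4 libraries was nearest to that of a member were found by the distance between log2(FPKM + 1) profiles, each centred on its own mean, among 692 loci. Nearest to Akr1c14 were Penk, the enkephalin precursor gene (distance 1.76), the apoptosis gene Bik (1.81) and Bola3 (1.86), on chromosomes 4, 15 and 6. These were at 12.8, 10.7 and 15.7 FPKM in the docetaxel efficient library and listed at 0 in both inhibited libraries. Akr1c14 spanned a wider range than any of them. Among the members themselves Akr1c18 was the nearest to Akr1c14 (2.08) and Akr1c12 the nearest to Akr1c13 (1.22).

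Nearest to Akr1c18 were Rhod, Snapc2 and Pdgfd, at distances of 0.33 to 0.40, each of them listed at 0 in both inhibited libraries. Nearest to Akr1c13 was Snhg4, a host gene of small nucleolar RNAs (0.40), at 10.5, 24.7, 14.1 and 41.0 FPKM in the efficient tumours without and with docetaxel and the inhibited tumours without and with it, followed by Prorsd1 (0.45) and Plekhf2 (0.50). These loci, picked for their likeness to Akr1c13, had their 2 larger values in the docetaxel libraries as well. Nearest to Akr1e1 were Dus3l (0.49), the chromatin reader gene Ing1 (0.59) and Klhl36 (0.81). These likenesses are descriptions over 4 libraries, and patterns shared with a member follow from how the loci were picked.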

How the data were processed

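Sequencing was on a MiSeq after removal of ribosomal RNA or selection of messenger RNA, per the labels' protocols. TopHat, Cufflinks and the mouse build mm9 were used, per the submitters' processing notes; the sources used here give neither versions nor annotation, nor a step that separates human from mouse reads. The authors deposited FPKM with bounds and a status, per the file headers, and the status was OK for all members in all 4 libraries.

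Starts were raised by 1, assuming counting from 0. Loci compared had status OK. Fragments were estimated as the square of the value over its SD, with the upper bound taken as 2 SD above, and relative depth from loci over 10 FPKM. Named were the members, neighbours within 1 Mb at 5 FPKM or more, the 3 loci nearest to each member at 5 FPKM or more (predicted genes, clone names, short RNAs and spans under 500 bp left out) and up to 4 highest genes of each list. The members and lists were chosen with earlier results of these data known. Alternatives were pseudocounts of 0.1 and 5, minima of 1, 20 and none, a 3-fold threshold, no bounds and 2 scalings. The rule was tried on simulated data, with differences placed only in loci averaging 10 FPKM or more and no variation between animals. Recovery of differences at members below that level was therefore not examined. Python 3.11.15, numpy 2.4.6, pandas 2.3.3 and matplotlib 3.10.9 were used.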

Additional observations from a re-analysis of the deposited data

Results flagged for a closer look

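Akr1e1 had the larger value with docetaxel in the efficient pair (5.08 against 1.32 FPKM) and the smaller one in the inhibited pair (a listed 0 against 4.44), so its docetaxel difference had opposite signs and the difference of differences was -3.84, or -1.59 with a pseudocount of 5. The bounds allow -6.42 to 1.26, and 9.55% of 775 loci lay past 2 on the lower side. The sign in the inhibited pair rests on a listed 0, so opposite responses are not shown. With 1 library in each group the difference of differences was not tested.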

How the results depend on the processing

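Akr1c14 remained the member called higher for docetaxel in efficient tumours, and lower for inhibition under docetaxel, in each setting tried. Without the bounds criterion 4 members were higher for docetaxel in efficient tumours and 1 in inhibited tumours. Under that setting 141 of 667 and 127 of 630 loci were higher. With a minimum of 20 FPKM, 0 members were called for inhibition in untreated tumours, where 5 of 163 loci were lower and 7 higher. Under docetaxel 1 was called lower, where 21 of 221 loci were lower and 19 higher. The counts were also 0 and 1 with loci above 0 in both libraries, an alternative chosen after seeing the data. There 12 of 559 and 30 of 637 loci were lower, and 11 and 26 higher. Akr1e1 was not called lower under docetaxel after either scaling, where 2 members were, as its scaled value lay under 5 FPKM. Of all loci, 62 of 659 were lower after median scaling and 71 of 674 after scaling to the chromosome 13 loci. A pseudocount of 0.1 moved the difference of differences to 2.78 for Akr1c14 and -7.37 for Akr1e1, and brought Akr1c12 to -2.71, while one of 5 gave -1.59 for Akr1e1, which was then no longer past 2. Each of these includes a listed 0. With a correlation in place of distance, 0 of 3 nearest loci were shared for Akr1c14, Akr1c18 and Akr1c13, and 1 for Akr1e1. No paired analysis was possible because each group was 1 library. Bounds with a lower limit above 0 were limited to Akr1c14 and Akr1c13 in some libraries and to Akr1c18 and Akr1e1 in the docetaxel efficient one, and human reads on mouse sequence were not examined.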
